A study of Caenorhabditis elegans with 3 samples.

Results

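The RNase P RNA gene rpr-1, the RNase MRP RNA gene mrpr-1 and the Y RNA gene yrn-1 of the nematode Caenorhabditis elegans each carried a peak of RPC-1, the main catalytic subunit of RNA polymerase III (Pol III), at rank 288, 341 and 371 of the 1914 peaks that were reproducible between replicates. In the longer replicate lists, which hold many weak peaks, their percentile rank by signal was between 98.5 and 99.5. These 3 genes were picked by name among 46890 annotated nuclear genes and located with the RefSeq annotation of WBcel235, which has the same sequence as genome build ce11. Whole young adult hermaphrodites of the transgenic strain YL517, in which RPC-1 bears a GFP-FLAG tag at its C terminus, were used for chromatin immunoprecipitation (ChIP) with an antibody against GFP, and fragments were sequenced. There were 3 biological replicates of this 1 group, and no untagged or input sample was analysed here, so all comparisons are between genes of the same lists. The line is a single transgenic strain, and whole animals give no tissue of origin. The authors deposited a peak list for each replicate with 24182, 24563 and 30000 peaks, a list from the pooled replicates with 30000 peaks and a reproducible list with 1914 peaks. The lists hold no read numbers, so the depth of each sample is unknown. Gene rpr-1 lies at I:13463955-13464207 on the plus strand and is 253 bp long, inside an intron of the Integrator subunit gene ints-8, which runs on the opposite strand and has no exon there. Gene mrpr-1 lies at II:7200233-7200418 on the plus strand and is 186 bp long, in the interval between 2 genes. Gene E04F6.6, on the opposite strand, starts 667 bp before it, and pcrg-1, on the same strand, starts 130 bp after it. Gene yrn-1 lies at IV:7499508-7499612 on the plus strand and is 105 bp long. It sits in an intron of F55G1.15 and inside the non-coding RNA gene F55G1.20, whose exon it overlaps, both on the opposite strand.

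All 3 genes make untranslated RNAs that work in protein complexes. RNase P RNA is the catalytic RNA of the enzyme that cuts the 5′ leader from precursor tRNAs. RNase MRP RNA is its relative, and in yeast and mammals it takes part in the maturation of ribosomal RNA. Y RNAs bind the Ro protein, which is ROP-1 in this worm, and are tied to the quality control of small RNAs. In vertebrates, the genes of all 3 kinds belong with U6 small nuclear RNA (snRNA) genes to the Pol III genes whose promoter lies outside the transcribed part, with a proximal sequence element and a TATA box upstream. The tRNA genes carry their promoter inside the gene, in the A and B boxes. Pol III ends transcription at a run of T on the coding strand.

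The sequences of mrpr-1 and yrn-1 are shown because the upstream letters and the T run at the 3′ end that all 3 genes share can be read in them, and 2 U6 promoters are shown beside them. Each runs 5′ to 3′ on the strand of the gene, from the reference genome of build WBcel235 (RefSeq). For mrpr-1 (II:7200133-7200428) and yrn-1 (IV:7499408-7499622), 100 bases before the gene are followed by the gene and 10 bases after it. The gene is bases 101 to 286 in mrpr-1 and bases 101 to 205 in yrn-1. For the U6 genes W05B2.8 (III:10989579-10989678) and F54D8.7 (III:5080899-5080998, minus strand), only the 100 bases before the gene are given. Capitals mark the shared upstream element or, in the U6 genes, its core, then the TATA run, and in the first pair also the first run of at least 4 T at the 3′ end.
mrpr-1: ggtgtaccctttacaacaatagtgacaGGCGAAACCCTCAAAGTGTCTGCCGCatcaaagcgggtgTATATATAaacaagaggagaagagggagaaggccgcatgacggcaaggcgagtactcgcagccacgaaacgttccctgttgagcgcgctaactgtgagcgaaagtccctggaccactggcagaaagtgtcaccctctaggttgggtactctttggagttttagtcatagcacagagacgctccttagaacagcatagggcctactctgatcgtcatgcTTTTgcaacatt
yrn-1: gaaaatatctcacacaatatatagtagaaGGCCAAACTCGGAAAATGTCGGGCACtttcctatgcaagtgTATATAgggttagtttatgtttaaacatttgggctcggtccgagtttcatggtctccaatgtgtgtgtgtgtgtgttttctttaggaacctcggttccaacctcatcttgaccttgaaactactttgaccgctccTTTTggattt
W05B2.8: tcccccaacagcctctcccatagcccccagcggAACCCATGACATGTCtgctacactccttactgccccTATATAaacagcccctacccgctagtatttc
F54D8.7: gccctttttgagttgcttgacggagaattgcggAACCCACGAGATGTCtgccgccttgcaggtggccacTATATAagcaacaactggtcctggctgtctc

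The 3 genes shared a 26-base element upstream. Aligned without gaps, their 150 upstream bases were most alike over a stretch that reads GGCNNAACNC, then 6 bases of any kind, then TGTCNGNCNC, where N is any base and 14 letters are the same in all 3. The element ran from -71 to -46 relative to the first base of the gene in rpr-1 and yrn-1, and from -73 to -48 in mrpr-1. The alignment let mrpr-1 and yrn-1 shift by at most 15 bases against rpr-1, which bounds how far these positions could differ. Between pairs of genes, 20 of the 26 bases were identical in rpr-1 and mrpr-1, 18 in mrpr-1 and yrn-1 and 16 in rpr-1 and yrn-1. Because the element was read from these 3 genes, its presence in them is no finding. Its rarity elsewhere was counted separately: 16 of all 46890 genes, or 0.0341%, had it on the strand of the gene within 150 bases upstream, these 3 included, and 19 genes, or 0.0405%, had it on either strand. None of the 612 tRNA genes, the 22 U6 genes, the 5 signal recognition particle (SRP) RNA genes, the 16 5S rRNA genes or the 19971 protein-coding genes had the whole element. An exact match was so rare that its absence from the small classes says little about how alike their promoters are.

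A TATA run followed the element at a near-constant distance. The longest word that all 3 upstream windows shared was GTATATA, which began at -31 in rpr-1, -35 in mrpr-1 and -31 in yrn-1. From the first base of the element to this word there were 40 bp in rpr-1, 38 bp in mrpr-1 and 40 bp in yrn-1. The limit on shifts in the alignment also bounds how far these distances could differ. Within 60 bases upstream, GTATATA stood before 0.757% of all genes on the strand of the gene and before 1.19% on either strand. It overlaps the shorter TATATA, which stood before 3.53% of all genes. The form TATAA was present on the strand of the gene in rpr-1 at -28 and in mrpr-1 at -30, was not found in that window of yrn-1, and stood before 13.9% of all genes (20.3% on either strand).

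The middle of the element was shared with some U6 genes. This core reads AACNC, 6 bases of any kind, then TGTC, and began at -66 in rpr-1 and yrn-1 and at -68 in mrpr-1. Its limits within the element were set by hand, with no rule fixed beforehand, and the counts of the core depend on that choice. The core was found on the strand of the gene within 150 bases upstream of 9 of 22 U6 genes, in each of them beginning at -66 or -67. It was also found there in 31 of 107 snRNA genes other than U6, or 29.0%, and in 0.431% of all genes (0.572% on either strand). From the core to the first TATATA there were 36 bp in rpr-1, in yrn-1 and in all 8 U6 genes that had both. For mrpr-1 the distance was 34 bp, but its run, TATATATA, holds a second, overlapping TATATA at 36 bp. The U6 genes are near copies of each other, so these 8 do not count as independent examples. In W05B2.8 and F54D8.7, the U6 genes whose promoters are shown, the core and the TATA run are at the same spacing as in yrn-1.

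**Figure D1:**
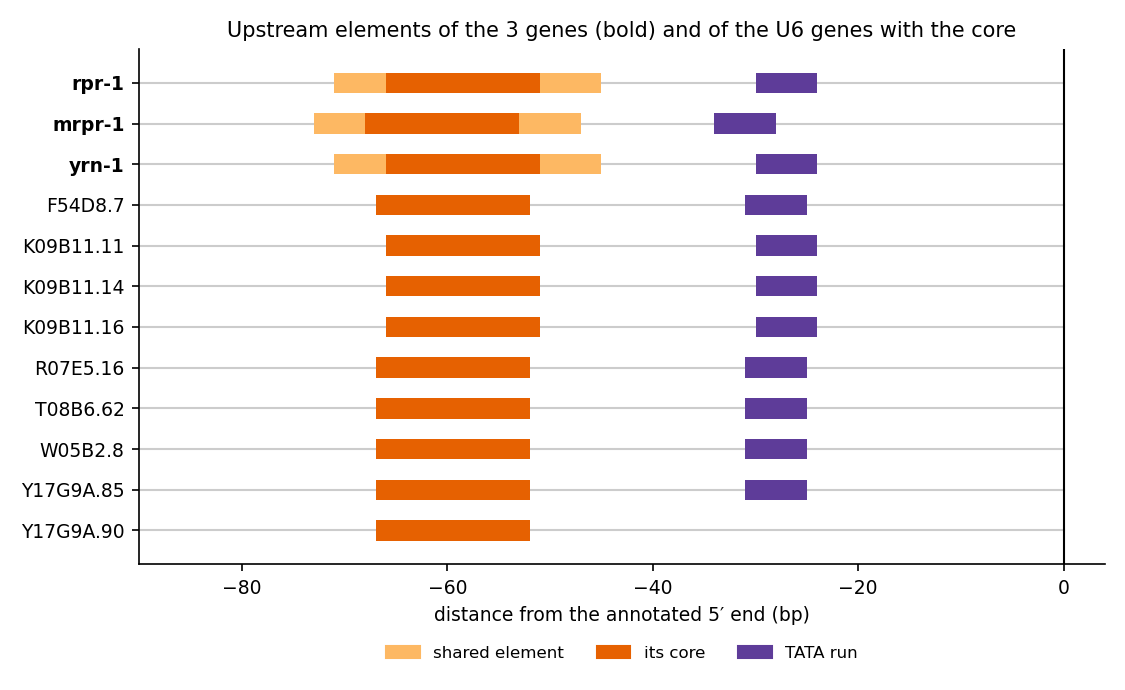
Positions of upstream letters, in bp from the annotated 5′ end (0), in rpr-1, mrpr-1 and yrn-1 (bold, top) and in the 9 U6 genes that hold the core. Light orange marks the 26-base element, dark orange its core and purple the first TATATA. This begins 36 bp after the start of the core in 10 of the 11 genes with both and 34 bp after it in mrpr-1. The run in mrpr-1 is longer, and a second, overlapping TATATA in it begins at 36 bp. Y17G9A.90 has no TATATA in the 60 bases upstream.

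The pairing of the core with TATATA was rare. The counts that follow were chosen after the sequences had been seen. Upstream of the gene, both letters were held by the 3 genes described here, by 8 U6 genes and by 3 other genes, but by none of the 612 tRNA genes, the 107 other snRNA genes (annotated snRNAs without the U6 letters ACAGAGA) or the protein-coding genes. A reproducible peak overlapped 4.91% of all annotated nuclear genes. It overlapped rpr-1, mrpr-1 and yrn-1, which supplied the letters, all 8 of these U6 genes and 1 of the 3 others, the snoRNA gene W05B2.9. The core without TATATA stood before 31 other snRNA genes, and 3 of these, or 9.68%, were overlapped by a reproducible peak, at ranks from 1719 to 1911 of 1914. It also stood before 1 U6 gene and 3 tRNA genes, all of them with a reproducible peak, before 41 protein-coding genes, of which 1 had a peak, at rank 72, and before 112 further genes, of which 19, or 17.0%, had a peak, the best at rank 2. The snRNA genes as a class hold genes of RNA polymerase II too, which in other animals use a proximal sequence element with no TATA box. Among U6 genes, 8 of 8 with both the core and TATATA had a reproducible peak, 1 of 1 with the core alone, 7 of 8 with TATATA alone and 1 of 5 with neither. These 5 include B0205.15, T20D3.12 and T20D3.13, of 108, 93 and 97 bp, while other U6 genes have 101 or 102 bp. Genes T20D3.12 and T20D3.13 also overlap each other. All were classed as U6 by the letters ACAGAGA alone. Whether they are working U6 copies was not tested, so the 1 of 5 is not read as an effect of the upstream letters. The median signal of U6 genes with a peak was 1466 for the 9 with the core (161 to 6175), against 744 for the 8 without it (287 to 3248), and the ranges overlapped.

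Over the whole nuclear genome and both strands, the full element had 129 matches. Leaving out the matches of rpr-1, mrpr-1 and yrn-1, from which the element was read, 126 matches remained. A summit of the reproducible list lay within 200 bp of 5 of these, or 3.97%, while 0.704% of the nuclear genome lay that close to such a summit. Many of the matches stood in pairs on opposite strands close together, as at I:759983-760008 and I:760045-760070. None of these pairs had a reproducible summit within 200 bp. The 126 matches are therefore not independent sites, and the 2 shares were not tested against each other. With TATATA 20 to 60 bp after the first base of the element there were 4 matches, of which 3 are those of rpr-1, mrpr-1 and yrn-1. The other match had no reproducible summit within 200 bp. All 5 matches with a summit outside the 3 genes were among the 125 without TATATA. One of them stood before the snoRNA gene ZK994.7, at rank 2 of the list with a signal of 9368, and others stood before the snoRNA gene T06D8.11 and the non-coding RNA genes lfor-1 and lfor-2. A match is a run of letters and not a measured binding site of any factor.

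Of the tRNA-type internal promoter, only B box letters were searched, inside the genes on the strand of the gene. The A box was not searched. The B box form GGTTCGA was in none of the 3 genes, against 395 of 612 tRNA genes, or 64.5%. The looser form GGTTCNA was in yrn-1, at base 63 of the gene, and in neither rpr-1 nor mrpr-1, against 530 of 612 tRNA genes, or 86.6%. No U6, SRP or 5S gene held either form. A run of at least 4 T was present at the 3′ end of all 3 genes. It began within the last 2 bases of rpr-1 and mrpr-1, and at the first base after yrn-1, and had 5 T in rpr-1 and 4 T in each of the other two. Such a run, starting no later than the first base after the gene, was also found at 18 of 22 U6 genes, 5 of 5 SRP RNA genes, 13 of 16 5S genes, 8 of 612 tRNA genes and 10.5% of all genes. Within 50 bases after the gene, 63.4% of all genes and 606 of 612 tRNA genes had one. A run of 4 T also lay inside mrpr-1, from base 124 of the gene, and inside yrn-1, from base 46, and rpr-1 held none inside.

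Each of the 3 genes was overlapped by a peak in all 5 lists. Beside the 4.91% of annotated nuclear genes overlapped by the reproducible list, the pooled list and those of replicates 1, 2 and 3 overlapped 30.9%, 28.8%, 29.4% and 32.7%. An overlap in the longer lists is therefore common, and the rank carries the information. The signal is the peak caller's own value and is set within a list, so it was compared only between peaks of 1 list. Ranks below run from 1, the strongest, over the nuclear peaks of a list, and the percentile rank is the share of those peaks with a lower signal.

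Gene rpr-1 had a signal of 952 in replicate 1, 871 in replicate 2 and 1652 in replicate 3, at ranks 274, 187 and 138. It was the strongest of the 3 genes in all 5 lists, and its percentile rank was 99.2 ± 0.337 (SD, n = 3). Gene mrpr-1 had a signal of 872, 709 and 1185 in replicates 1, 2 and 3, at ranks 315, 276 and 297, and a percentile rank of 98.9 ± 0.157. Gene yrn-1 had a signal of 808, 659 and 1425, at ranks 362, 303 and 208, and a percentile rank of 98.9 ± 0.410. In percentile rank the ranges over replicates overlapped, at 98.9 to 99.5 for rpr-1, 98.7 to 99.01 for mrpr-1 and 98.5 to 99.3 for yrn-1. Replicate 3 gave rpr-1 and yrn-1 their best ranks and replicate 1 their worst.

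Compared within each replicate, rpr-1 stood above mrpr-1 by 0.354 ± 0.181 percentile points and above yrn-1 by 0.357 ± 0.120, in 3 of 3 replicates for both. Genes mrpr-1 and yrn-1 differed by 0.00255 ± 0.263 points, with mrpr-1 higher in 2 of 3 replicates, which is less than the spread between replicates. Gene mrpr-1 was second in 3 of the 5 lists and yrn-1 in 2, the pooled list and that of replicate 3. Since an exact sign test over 3 replicates cannot give a two-sided p below 0.25, no test of these differences was made. In ratio to the median signal of tRNA genes overlapped by a peak in the same list, rpr-1 was at 1.32 ± 0.188, mrpr-1 at 1.07 ± 0.0564 and yrn-1 at 1.09 ± 0.166 over replicates. In the reproducible list the same ratios were 1.05, 0.942 and 0.897. The tRNA median used there, 3312, includes genes that share a peak, and was 3139 over tRNA genes with a peak of their own.

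**Figure D2:**
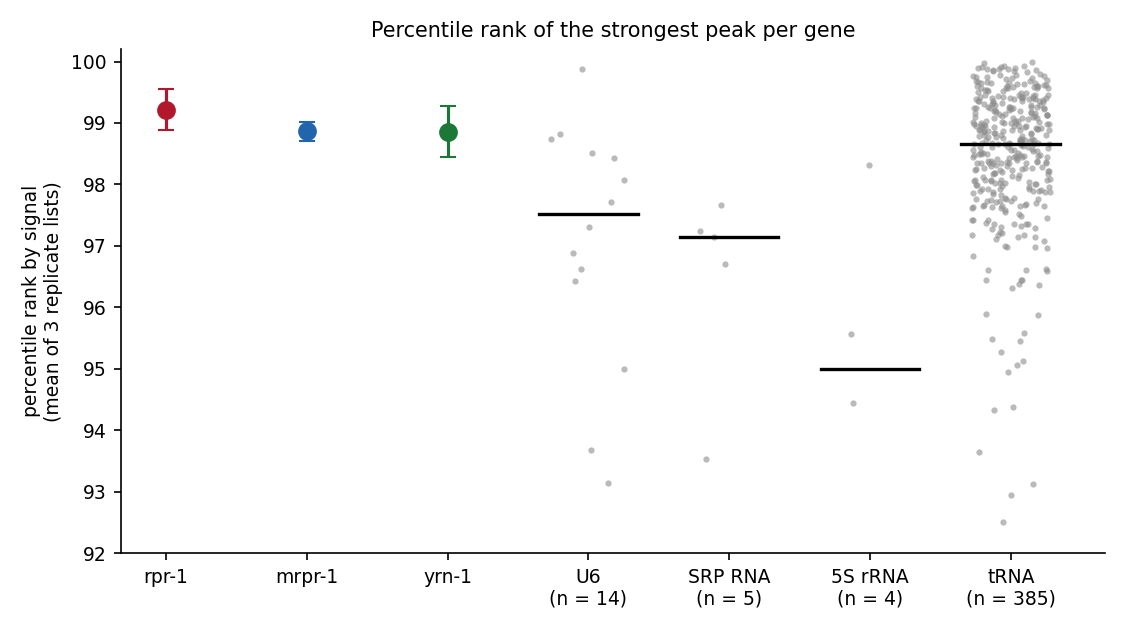
Percentile rank by signal of the strongest peak at rpr-1, mrpr-1 and yrn-1 (mean ± SD of 3 replicate lists) and at single U6, SRP RNA, 5S rRNA and tRNA genes (grey, mean of 3 lists) that had a peak shared with no other Pol III gene in every replicate, with the class median as a line. The axis starts at 92, which leaves out 1 5S and 10 tRNA genes. The 3 genes lie between 98.9 and 99.2, above all 5 SRP RNA genes and the 4 of 16 5S genes with such a peak. The 3 genes are within the range of the tRNA genes, and 1 of 14 U6 genes is above rpr-1.

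Among other Pol III genes, the 3 stood with the tRNA genes and above most others. Every SRP RNA gene and every 5S gene with a peak was weaker than each of the 3 in all 5 lists. Of the 16 5S genes, only 3 had a peak in the reproducible list and 4 in each other list. In the reproducible list, 2 of 17 U6 genes with a peak were stronger than rpr-1, 3 were stronger than mrpr-1 and 4 were stronger than yrn-1. The U6 gene W05B2.8 was stronger than all 3 in every list. The median percentile rank over replicates was 97.3 ± 0.378 for U6 genes, 97.1 ± 0.438 for SRP RNA genes, 95.0 ± 0.739 for 5S genes and 98.6 ± 0.138 for tRNA genes (SD, n = 3 lists, genes with a peak of their own). In the reproducible list, rpr-1, mrpr-1 and yrn-1 had percentile ranks of 85.0, 82.2 and 80.7, against medians of 61.1 for U6 genes, 59.8 for SRP RNA genes and 82.5 for tRNA genes.

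Set against tRNA genes with a peak, the place of rpr-1 and yrn-1 moved between replicates more than that of mrpr-1. The share of tRNA genes stronger than rpr-1 was 42.1% in replicate 1, 28.2% in replicate 2 and 18.5% in replicate 3. For mrpr-1 this share was 48.7%, 43.1% and 45.9%. For yrn-1 it was 57.3%, 46.6% and 31.2%. In the reproducible list 272 of 590 tRNA genes with a peak, or 46.1%, were stronger than rpr-1, 55.4% were stronger than mrpr-1 and 59.5% were stronger than yrn-1. These shares count every tRNA gene overlapped by a peak, and in the reproducible list only 394 of the 590 had a peak of their own. The others lay on an interval with another Pol III gene, so 1 peak can count for several genes.

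Among 408 other Pol III genes with a peak of their own in every replicate, those with the most similar percentile ranks were tRNA genes in all cases. They were C02B4.t1, C53C7.t3 and Y38E10A.t1 for rpr-1, with mean absolute differences of 0.0694, 0.121 and 0.124 percentile points over the 3 replicates. For mrpr-1 they were R11B5.t3, C29F7.t1 and F45G2.t1, at 0.0363, 0.0482 and 0.0501 points. For yrn-1 they were F32A6.t1, D1009.t1 and F32B4.t1, at 0.124, 0.142 and 0.143 points. The tRNA genes make up 385 of the 408, so a tRNA gene as the nearest match is the usual case.

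The 3 genes consist of sequence that occurs once. No 36-base word of rpr-1, mrpr-1 or yrn-1 was found anywhere else in the nuclear genome on either strand. In contrast, the median share of repeated 36-base words was 100% over the 22 U6 genes (2.74% to 100%) and 68.6% over the 5 SRP RNA genes (0% to 85.2%). Repeated words were not counted in the 5S genes. The treatment of reads with several matches is not stated in these sources. The part of repeated sequence in the lower ranks of U6, SRP RNA and 5S genes was not tested.

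The strongest summit lay at the start of rpr-1 and yrn-1 and deeper inside mrpr-1. Counted from the annotated 5′ end, with the first base at 0, the summit of rpr-1 was at 13 bp in replicate 1, 6 bp in replicate 2 and 5 bp in replicate 3. The summit of yrn-1 was at 4, 4 and 16 bp, and that of mrpr-1 was at 72, 55 and 72 bp. Means over replicates were 8 ± 4.36 bp for rpr-1, 66.3 ± 9.81 bp for mrpr-1 and 8 ± 6.93 bp for yrn-1. The 3 values of mrpr-1 did not overlap those of the other two genes. Within replicates, mrpr-1 exceeded rpr-1 by 58.3 ± 9.02 bp and yrn-1 by 58.3 ± 8.74 bp, in 3 of 3 replicates each. The lengths of rpr-1, mrpr-1 and yrn-1 are 253, 186 and 105 bp, and a link between gene length and summit position was not tested. In the reproducible list the summits were at 17 bp in rpr-1, 94 bp in mrpr-1 and 16 bp in yrn-1.

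For comparison, the class median over replicate lists was 32.3 ± 16.7 bp for U6 genes, 168 ± 28.4 bp for SRP RNA genes and 19.8 ± 2.36 bp for tRNA genes. The mean summit of mrpr-1 over replicates lay above 50 bp, the upper quartile of such means over 385 tRNA genes. These tRNA genes had a peak of their own in every replicate. The mean of mrpr-1 lay below the median of the 5 SRP RNA genes. Within single lists, mrpr-1 was above the upper tRNA quartile in replicate 1 (72 against 56 bp) and replicate 3 (72 against 62 bp). In replicate 2 it was below that quartile (55 against 64 bp). The means of rpr-1 and yrn-1 lay below 13 bp, the lower quartile of the tRNA means. This did not hold in every list. Within replicates 1, 2 and 3 the lower tRNA quartiles were 12, 12 and 11 bp. Above them stood rpr-1 in replicate 1, at 13 bp, and yrn-1 in replicate 3, at 16 bp. In the reproducible list rpr-1 at 17 bp and yrn-1 at 16 bp were above the tRNA median of 13 bp. The tRNA quartiles there were 11 and 16.8 bp. The first TATATA starts at -34 in mrpr-1 and at -30 in rpr-1 and yrn-1. Counting from it instead of the annotated 5′ end adds 4 bp to the difference. Counting from the second, overlapping copy in mrpr-1 adds less.

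**Figure D3:**
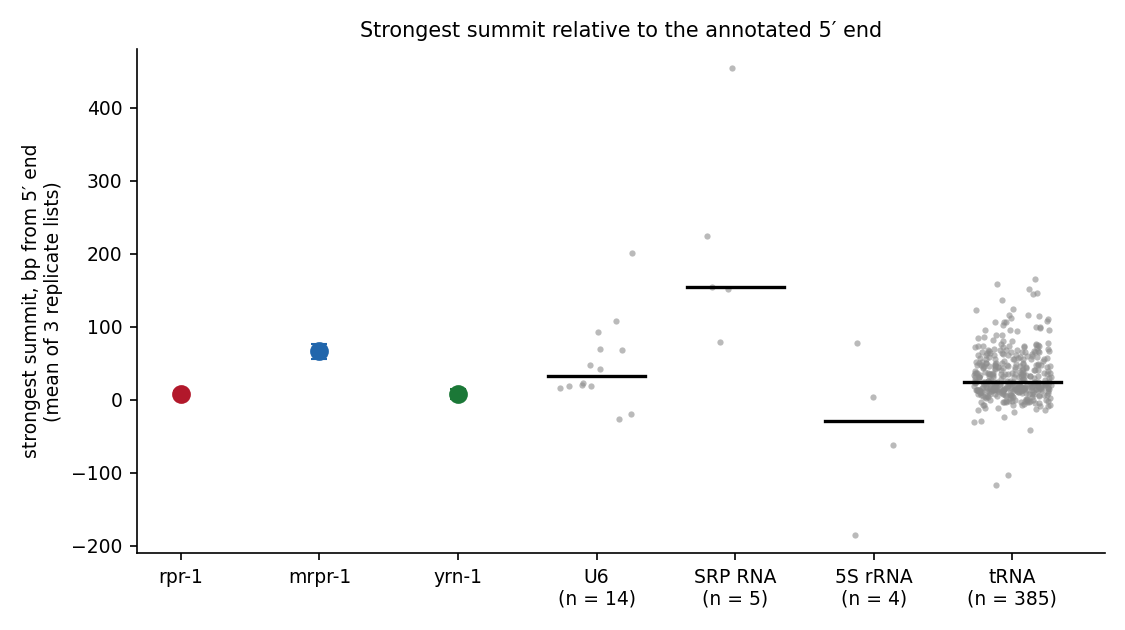
Strongest summit in bp from the annotated 5′ end at rpr-1, mrpr-1 and yrn-1 (mean ± SD of 3 replicate lists, the bars partly within the symbols) and at single genes of the other classes (grey, mean of 3 lists, class median as a line). The axis leaves out 1 tRNA gene. Genes rpr-1 and yrn-1 sit at 8 bp, and mrpr-1 sits at 66.3 bp, higher than most tRNA genes.

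A weaker second summit stood on the same peak interval at rpr-1 and mrpr-1 in the pooled list and in all 3 replicate lists, and at yrn-1 in none of the 5 lists. In rpr-1 it lay at 216, 207 and 207 bp in replicates 1, 2 and 3, which is 36 to 45 bp before the 3′ end of the gene. Its signal was 0.138, 0.237 and 0.279 of that of the strongest summit, at ranks 983, 761 and 674. At mrpr-1 it lay at 276, 254 and 283 bp, which is 69 to 98 bp past the 3′ end of the gene, with 0.354, 0.531 and 0.293 of the signal of the strongest summit. The annotated start of pcrg-1 is at 316 bp on the same scale, and whether the second summit belongs to mrpr-1 or to pcrg-1 was not tested.

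The spacing of these summits is at the lower limit of the lists. The second summit followed the strongest by 202 ± 1.00 bp in rpr-1 and by 205 ± 6.03 bp in mrpr-1 (SD, n = 3). In every list, no pair of summits on a shared interval stood closer than 199 bp, and the median spacing over all such neighbours was 203 to 213 bp. At this limit the distance is not read as a property of the 2 genes. A second summit 100 to 400 bp downstream was also present at 28.8% ± 1.07 of tRNA genes and at 22.2% ± 7.70 of U6 genes with a peak of their own, and at none of the 5 SRP RNA genes in the replicate lists. The reproducible list had a single summit at each of the 3 genes.

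The peak intervals were of similar width at rpr-1 and mrpr-1 and narrower at yrn-1. They spanned 903, 853 and 1076 bp at rpr-1, 976, 905 and 1026 bp at mrpr-1 and 701, 796 and 792 bp at yrn-1 in replicates 1, 2 and 3. The means were 944 ± 117 bp, 969 ± 60.8 bp and 763 ± 53.7 bp, and yrn-1 had the narrowest interval in 3 of 3 replicates. In each replicate list 93.1% to 94.1% of all peaks had 1 fixed width, of 460, 470 and 480 bp, and all 3 genes had wider intervals. The class median was 470 ± 10 bp for U6 genes and the same for SRP RNA genes, and 778 ± 44.3 bp for tRNA genes. The U6 and SRP RNA medians fell on this fixed width, but most of these genes did not have it. In replicates 1, 2 and 3 it was held by 1, 1 and 2 of 15 U6 genes with a peak of their own. For SRP RNA genes the counts were 2, 2 and 1 of 5. Mean widths of single U6 genes over replicates ran from 263 to 994 bp. Widths in the reproducible list were 893 bp at rpr-1, 945 bp at mrpr-1 and 859 bp at yrn-1, against medians of 730 bp for U6, 825 bp for SRP RNA and 840.5 bp for tRNA genes, so the gap to U6 and SRP RNA genes was smaller there. The intervals ran well past each gene on both sides, by 306 to 497 bp upstream and 220 to 509 bp downstream over the replicates, so an interval alone does not tell one gene from its neighbour.

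**Figure D4:**
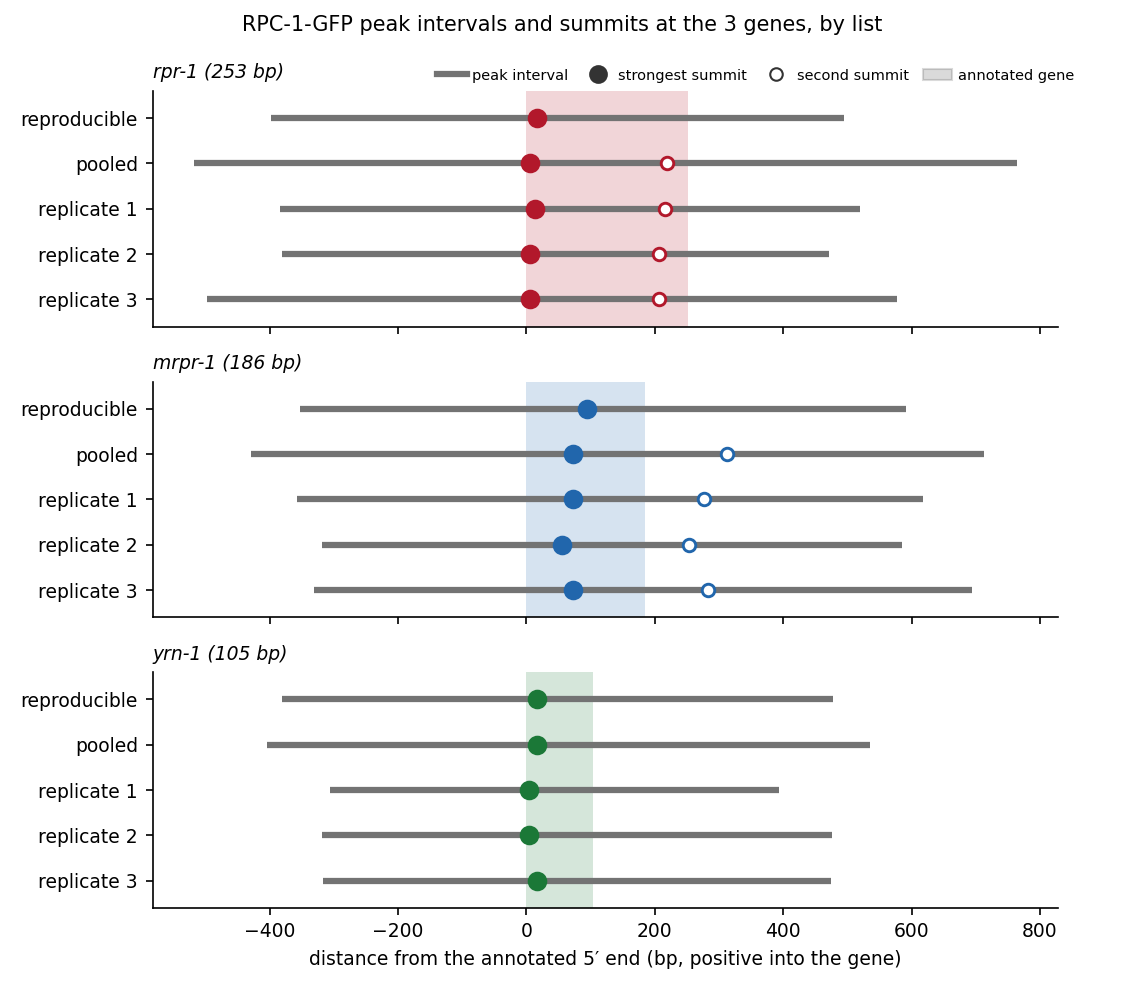
Peak intervals (grey bars) and summits at rpr-1, mrpr-1 and yrn-1 in the 5 lists, in bp from the annotated 5′ end, with the gene as a shaded band. Filled circles are the strongest summit of a list and open circles the second summit, which is present at rpr-1 and mrpr-1 in the pooled and the 3 replicate lists and never at yrn-1.

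Other peaks near the 3 genes were no rarer than near genes in general, and all ranked below those over the genes. Within 2000 bp of their 5′ ends, 19 peaks that did not overlap them were listed over the 5 lists, or 6.33 a gene, against 3.48 a gene over all annotated genes. None of the 19 was in the reproducible list, which had 0.0576 such peaks a gene over all annotated genes. Their absence near 3 genes is therefore the usual case. The highest percentile rank among them was 79.2 in the pooled list, 45.6 in replicate 1, 74.9 in replicate 2 and 84.3 in replicate 3, below the lowest of 98.5 at the 3 genes themselves.

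The protein genes that work with these RNAs had no reproducible peak at their promoters. Of 15 genes listed for the proteins of RNase P and RNase MRP, the Ro protein and the largest Pol III subunits, 7 were found in the annotation by these names and 8 names (rpp-14 to rpp-40) were not. None of the 7 had a reproducible peak within 250 bp of the 5′ end of the gene, against 1.4% of all protein-coding genes, and 7 genes are too few to show a share below that. The 7 were popl-1, popl-4, popl-5 and popl-7, which code for POP-like subunits of RNase P, rop-1, which codes for the Ro protein, and rpc-1 and rpc-2, which code for the largest Pol III subunits. In the pooled list 4 of the 7 had a peak there, against 31.8% of protein-coding genes, with the highest percentile rank, 89.7, at popl-7. The tagged gene itself, rpc-1, had none in any list. The Ro gene rop-1 had a peak in replicate 1 only, at a percentile rank of 55.8. Of 3 genes added after the files had been seen, including ssb-1, the gene of the La protein that binds new Pol III transcripts, none had a reproducible peak. All 3 had a peak in the pooled list, with ssb-1 at a percentile rank of 91.4, and in every replicate list. Among them, Y62E10A.24 had the same percentile ranks as popl-7 in the pooled and every replicate list, so it is not read as a separate peak.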

How the data were processed

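ChIP-seq peak lists on build ce11 were used as the authors deposited them: 1 list per replicate, 1 for the pooled replicates and 1 reproducible list. The deposited signal value of each peak is the peak caller's own and has no unit across lists. Not given in the sources used here are the aligner, the peak caller and the settings. No reproducible peak had the same interval and summit in another ce11 list, so which call it came from is not known. Lists on ce10 were not used here. Start, end and summit were counted from 1. Mitochondrial peaks were left out. A gene had a peak where at least 1 bp overlapped, and the strongest overlapping peak was taken. A peak of its own is one whose interval no other Pol III gene overlapped. U6 genes were the 22 snRNA genes holding ACAGAGA. Values are mean ± SD of 3 replicate lists, with no test. Genes were named by this rule: the 3 members, U6, SRP or 5S genes stronger than them, the 3 most alike genes per member, and the listed partners. Other genes named with the upstream motifs were chosen after their values were seen. The sequence comparisons, the second summits and the members and lists were chosen with earlier results of these data known. Overlaps, ranks and motif searches were tested on simulated data. Python 3.11.15, numpy 2.4.6 and matplotlib 3.10.9 were used.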

Additional observations from a re-analysis of the deposited data

How the results depend on the processing

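Of 92 alternatives over 35 results, 69 kept direction and size, 19 moved and 4 reversed. With the pooled in place of the reproducible list, the ranks were 179 for rpr-1, 292 for mrpr-1 and 275 for yrn-1 (288, 341 and 371 in the reproducible list), the summits were at 6 bp in rpr-1 and 72 bp in mrpr-1, and the widths were 1283, 1143 and 941 bp. In that list 27.6%, 47.7% and 44.1% of tRNA genes with a peak were stronger than rpr-1, mrpr-1 and yrn-1, and 1 U6 gene was stronger than rpr-1 and 1 than yrn-1. Among only the strongest 1914 peaks of each replicate, which have fewer weak peaks by construction, the percentile ranks were 89.6, 84.6 and 84.8. Taking the summit nearest the middle of the gene gave rpr-1 minus mrpr-1 as -2.0 and rpr-1 minus yrn-1 as -2.0 percentile points, since this takes the weaker second summit inside rpr-1. The difference between mrpr-1 and yrn-1 was -0.0934 to 0.152 points with 1 replicate left out. The cause of the other changes was not tested. No paired analysis was possible because the samples form 1 group with no second to pair them with, and genes were compared within each replicate instead. With no read numbers and no control list, neither depth nor enrichment over an untagged strain can be given, and 3 replicates limit the precision.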
